A study of Mus musculus with 9 samples.

Results

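Nicotinamide adenine dinucleotide (NAD) synthesis was described through 10 genes chosen by their symbols: Tdo2, Kmo, Kynu, Haao, Acmsd, Qprt, Naprt, Nadsyn1, Nampt and Nmnat1. They are 10 of the 33211 genes in the deposited table. The symbols of 9 were found as written, and Naprt was matched by its Ensembl identifier under the older symbol Naprt1. RNA-seq was performed on the livers of male wild-type mice (C57BL/6 in the labels, C57BL6/J in the methods), 8 weeks old at the start, that were fed a high-fat diet (HFD) for 7 weeks. The diet was kept at -20 °C in a freezer (HFDfre, n = 5) or at 4 °C in a fridge (HFDfri, n = 4). The comparison asks how the storage of the diet affects expression of these genes in the liver. The study gives the libraries as n for each group of mice, and the labels do not state that each is a separate animal. Libraries of a group differed by a chi-square of at least 94.3 per gene, so none was a repeat of another within sampling noise. The p-values measure the spread between these samples.

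NAD carries electrons in catabolism and is used up by sirtuins, poly(ADP-ribose) polymerases and glycohydrolases, so that cells must keep making it. The liver can build it from tryptophan, through kynurenine and quinolinate (the de novo route), from nicotinate (the Preiss-Handler route), or from the nicotinamide that the NAD users release (the salvage route). The routes meet at an adenylyltransferase step. ACMSD draws an intermediate of the de novo route away towards oxidation, before quinolinate forms, and competes in this way with NAD synthesis.

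Of the 10 genes, 0 passed an adjusted p of 0.05 by edgeR's quasi-likelihood test, against 1.05% of the 14220 genes tested. DESeq2 called 1 of them, Acmsd, against 7.26% of all tested genes. By unadjusted p under 0.05, 2 of the 10 were found, Acmsd and Nadsyn1, against 21.2% of all tested genes, a share near the background. The same 2 genes were fully apart in the HFDfre and HFDfri libraries in TMM-scaled CPM, against 7.69% of all tested genes. Acmsd was higher and Nadsyn1 lower in HFDfri, and the gap of Nadsyn1 was not there without TMM. The fold changes pointed up for 5 genes and down for 5, and their median log2 fold change of -0.03 lay beside -0.0068 over all tested genes. All 10 genes passed the filter on low counts, with between 362 (Acmsd) and 102809 (Tdo2) counts in a library. In whole liver, fewer cells that express a gene and less of its RNA per cell cannot be told apart.

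**Figure D1:**
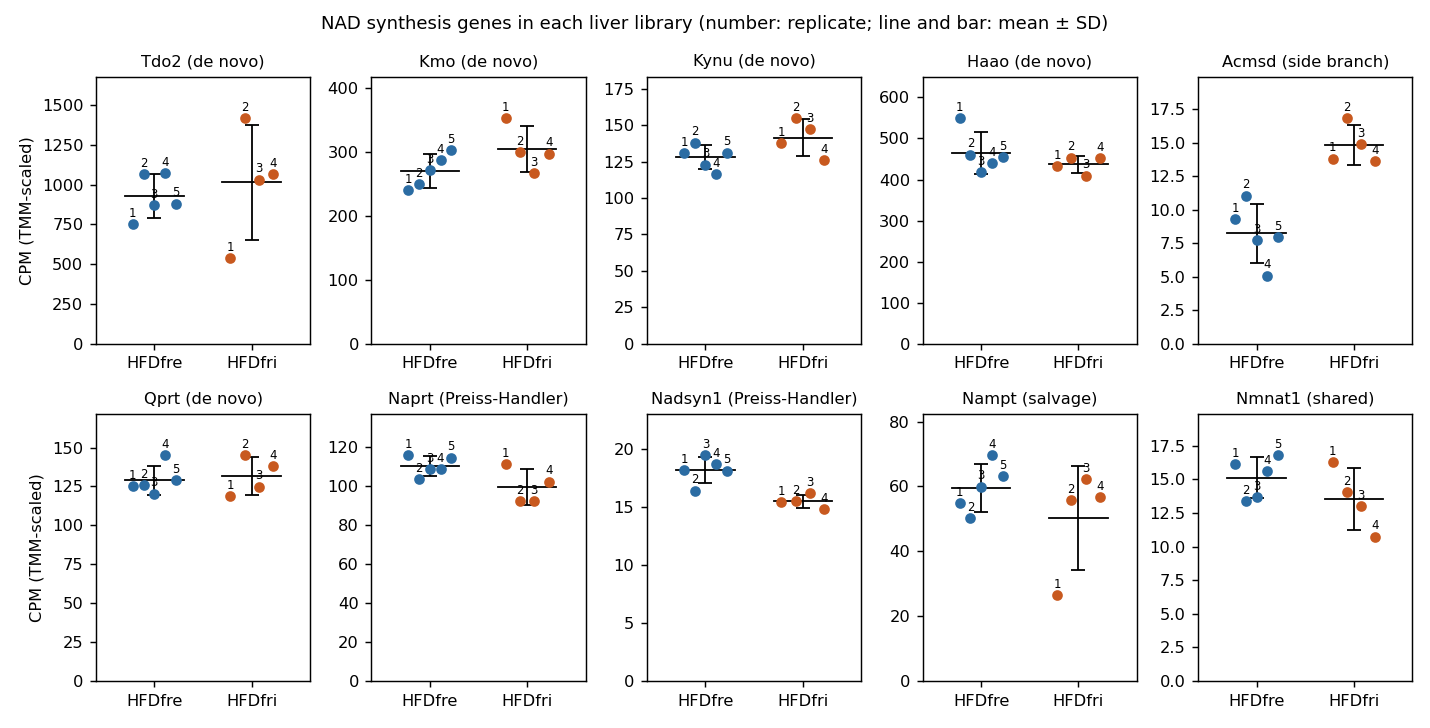
Counts scaled to the library size (CPM) of the 10 genes in each library, with the HFDfre and HFDfri groups side by side, the replicate number at each point, and the mean ± SD as a line and bar. The groups are apart for Acmsd (5.08 to 11.1 against 13.6 to 16.9 CPM) and Nadsyn1, and HFDfri 1 lies low for Tdo2 and Nampt.

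The libraries held from 58614917 to 69353439 counts, with 15969 to 16561 genes detected. Transcripts of the mitochondrial genome made up 15.4% ± 3.03 of HFDfre counts and 10.7% ± 2.08 of HFDfri counts (SD, exact permutation p = 0.0397, adjusted 0.0595 over 3 measures). The major urinary protein genes made up 7.54% ± 1.47 and 12.2% ± 2.40 (SD, exact permutation p = 0.00794, the smallest this design allows, adjusted 0.0238). The part of these shares in the results below was not tested beyond the covariate fits given. A ribosomal RNA-like locus, Gm26924, ranged from 0.466% to 11.1% over the libraries, with overlap (exact permutation p = 0.214). All 8 hepatocyte markers were expressed and 0 passed the adjusted threshold, although 4 had an unadjusted p under 0.05 by edgeR, with a summed level of 95130 to 101500 CPM in HFDfre and 84440 to 111400 CPM in HFDfri. Of 4 kidney tubule markers, 3 were at 0 in every library, and the sum of the 4 reached at most 0.084 CPM. The summed levels of the macrophage, endothelial, stellate, cholangiocyte and lymphocyte markers overlapped between the groups, and 0 of these markers passed the adjusted threshold, with 2 at an unadjusted p under 0.05 by edgeR and both of them named here: Des lower and Sox9 higher in HFDfri. Of 4 pancreas markers 3 were at 0 in every library, while Cela1 was at 9.96 to 16.8 CPM in HFDfre and 17.2 to 25.3 CPM in HFDfri (edgeR adjusted p = 0.131, unadjusted 0.012). Of 4 adipocyte markers, Adipoq and Plin1 were at 0 in every library. Cidec, the only 1 of them tested, averaged 16.8 CPM in HFDfre and 7.35 CPM in HFDfri (log2 fold change -1.19, edgeR adjusted p = 0.251). The summed level of the 4 overlapped between the groups.

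Promoter sequences are shown for 3 genes on which values turn. They are Nadsyn1, which was lower without overlap in TMM-scaled CPM, and Tdo2 and Nampt, which were both lowest in HFDfri 1. Qprt was lowest in that library too, at 119 CPM. Its window, in which none of the 6 motifs was found, is not shown. Each window runs from 250 bases before the RefSeq start to 50 after it, on the strand of the gene, GRCm38.p6. That start is not always the gene start in GENCODE M21. The distance between them was 3 bases for Nadsyn1, 474 for Tdo2 and 790 for Nampt. For Kmo it was 11812 bases, for Haao 1173, for Qprt 197, and for Nmnat1 8 or 30. Windows of 7 of the 10 genes were used, with an additional window for Nmnat1. Capitals mark 6 motifs searched on both strands. The promoter box bound by the basal machinery was searched as TATAAA. The box bound by the nuclear factor NF-Y was searched as CCAAT. The box bound by factors of the Sp family was searched as GGGCGG. The E-box was searched as CACGTG, the half-site of nuclear receptors as AGGTCA, and the half-site of the hepatocyte factor HNF1 as GTTAAT. A match on the other strand shows as its reverse complement. In the 3 windows shown, no marked motif overlaps another.
Nadsyn1, chr7:143822803-143823102, minus strand: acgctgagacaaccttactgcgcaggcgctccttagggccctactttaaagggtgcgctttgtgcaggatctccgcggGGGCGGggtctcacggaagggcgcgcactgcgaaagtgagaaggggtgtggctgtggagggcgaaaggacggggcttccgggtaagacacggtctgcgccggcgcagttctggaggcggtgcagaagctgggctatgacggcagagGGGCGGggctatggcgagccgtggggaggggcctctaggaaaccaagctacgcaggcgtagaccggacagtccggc
Tdo2, chr3:81975679-81975978, minus strand: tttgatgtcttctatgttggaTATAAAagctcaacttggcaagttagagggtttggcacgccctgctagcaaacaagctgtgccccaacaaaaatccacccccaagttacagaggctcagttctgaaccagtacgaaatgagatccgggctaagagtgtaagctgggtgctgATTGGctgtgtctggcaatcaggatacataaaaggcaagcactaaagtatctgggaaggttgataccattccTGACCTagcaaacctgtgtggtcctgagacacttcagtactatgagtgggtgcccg
Nampt, chr12:32820085-32820384, plus strand: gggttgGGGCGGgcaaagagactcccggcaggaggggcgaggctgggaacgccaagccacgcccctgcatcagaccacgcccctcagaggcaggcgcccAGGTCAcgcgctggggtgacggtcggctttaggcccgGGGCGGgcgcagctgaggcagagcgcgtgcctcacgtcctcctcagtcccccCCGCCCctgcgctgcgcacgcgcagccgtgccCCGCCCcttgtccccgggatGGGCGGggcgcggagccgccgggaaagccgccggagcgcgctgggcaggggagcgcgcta

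The windows of these genes differ in base composition. Those of Nampt and Nadsyn1 are rich in G and C (76.3% and 65.7%), with 36 and 27 CG dinucleotides, and hold 5 and 2 matches to the Sp family motif (GC box). That of Tdo2 has 47.7% G and C, with 4 CG dinucleotides and no GC box. Over the 32851 windows of the reference the medians are 52.7% and 7 CG dinucleotides. The nuclear receptor half-site is in the windows of 3 of the 7 genes (Haao, Nampt and Tdo2), and in 16.3% of all windows. The GC box is in 3 of the 7 and in 35.7% of all windows, the CCAAT box in 2 of the 7 and in 37.4%, and the TATA box in Tdo2, where it begins at position -229 from the RefSeq start, and in 13.6%. The HNF1 half-site is in Haao and in 7.10% of all windows, and the E-box in 0 of the 7 and in 7.15%. These are matches of letters and not sites of binding.

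The level of the 10 genes was compared per length, as TPM, the count per base of exon scaled to the same sum in each library, from the counts and the summed exon length of each gene. Tdo2 was the highest at 411 ± 102 TPM in HFDfre (SD, n = 5) and 508 ± 222 TPM in HFDfri (SD, n = 4), place 182 among the tested genes, and took 46.2% of the summed TPM of the 10 genes. Haao followed at 168 ± 15.8 and 176 ± 24.1 TPM, and Kmo at 98.0 ± 19.6 and 120 ± 6.97 TPM. Qprt and Naprt came next, with means over all 9 libraries of 88.2 and 79.4 TPM. Their ranges overlapped, and Qprt was the higher of the 2 in 6 of 9 libraries. The ranges of Kmo and Qprt overlapped too, although Kmo was the higher in all 9. Kynu was at 38.9 TPM and Nampt, the entry gene of salvage, at 19.8 TPM. The summed exon length of Kynu is 6149 bases and its longest transcript 2778. With the longest transcript as the length, Kynu was at 74.2 TPM and Naprt at 84.5 TPM. How far Kynu lies below Naprt thus depends on the length used. The range of Nampt overlapped that of Nadsyn1, although Nampt was the higher in all 9 libraries. Nadsyn1, Nmnat1 and Acmsd were the lowest, at 9.09, 8.40 and 7.11 TPM over all libraries, and the ranges of neighbours among these 3 overlapped. In HFDfri alone Acmsd had the highest mean of the 3, at 9.92 ± 2.08 TPM against 4.87 ± 1.20 TPM in HFDfre. The genes of the de novo route spanned a wide range, from Tdo2 down to Kynu, with the side branch gene Acmsd far below them.

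**Figure D2:**
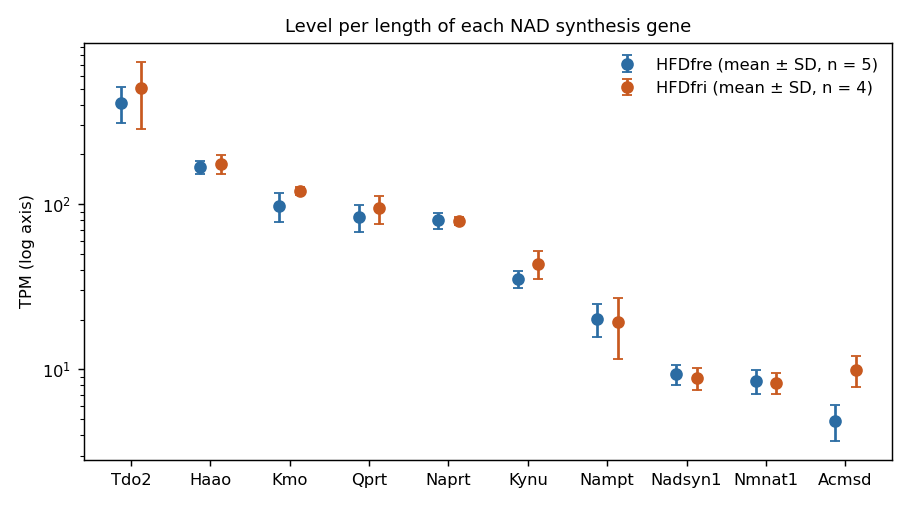
Level per length (TPM, log axis) of the 10 genes in the order of their mean over all libraries, as mean ± SD in HFDfre (n = 5) and HFDfri (n = 4). Tdo2 is highest at 411 and 508 TPM, and Acmsd is the gene whose groups lie farthest apart, at 4.87 and 9.92 TPM.

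Acmsd (ENSMUSG00000026348, chromosome 1, 127729413 to 127767978, GRCm38) encodes aminocarboxymuconate semialdehyde decarboxylase, the enzyme at the branch point. In HFDfre it was at 9.30, 11.1, 7.76, 5.08 and 7.98 CPM in replicates 1 to 5, and in HFDfri at 13.8, 16.9, 14.9 and 13.6 CPM in replicates 1 to 4. Every HFDfri library lay above every HFDfre library, and HFDfre 4 was the lowest. The mean was 8.23 ± 2.20 CPM (SD, n = 5) in HFDfre and 14.8 ± 1.49 CPM (SD, n = 4) in HFDfri. The difference on the log2 scale was 0.85 ± 0.18 (SE), or 1.80-fold with a 95% interval from 1.37 to 2.38. The edgeR adjusted p was 0.0507, just outside the threshold, from an unadjusted p of 5.85e-04. The call depended on the tool, with an adjusted p of 9.88e-04 by DESeq2 and 0.0425 by limma-voom. It passed in 7 of 19 alternatives, with adjusted p from 9.88e-04 to 0.238 by DESeq2, limma and edgeR, and with log2 fold changes from 0.72 to 1.04, all higher in HFDfri. Leaving out HFDfre 2 (edgeR adjusted p = 0.0496) or HFDfri 1 (edgeR adjusted p = 0.0296) was enough for it to pass. With the mitochondrial share as a covariate the log2 fold change was 1.04 (edgeR adjusted p = 0.238). That share averaged 15.4% in HFDfre and 10.7% in HFDfri, so this fit separates it from the diet only in part. An annotated antisense gene overlaps an exon of Acmsd, and the use of strand in counting is not stated, so a part of these counts could come from it.

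Qprt (ENSMUSG00000030674, chromosome 7, 127107114 to 127122226) encodes quinolinate phosphoribosyltransferase, which takes the other arm of that branch into NAD. Its CPM was 120.3 to 145 in HFDfre and 119 to 145 in HFDfri, nearly the same range. The means were 129 ± 9.38 and 132 ± 12.0 CPM, a log2 fold change of 0.030 ± 0.092 (SE, edgeR adjusted p = 0.888) with a 95% interval from -0.17 to 0.23. Per length, Acmsd was 6.94%, 8.22%, 6.02%, 3.28% and 5.78% of Qprt in the HFDfre replicates 1 to 5 and 10.9%, 10.9%, 11.2% and 9.23% in the HFDfri replicates 1 to 4. These shares of TPM did not overlap between the groups and averaged 6.05% ± 1.82 and 10.5% ± 0.884. Being within a library, they do not depend on how libraries were scaled to each other. In both groups the branch gene was thus far less abundant, per length, than the gene of the NAD arm.

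**Figure D3:**
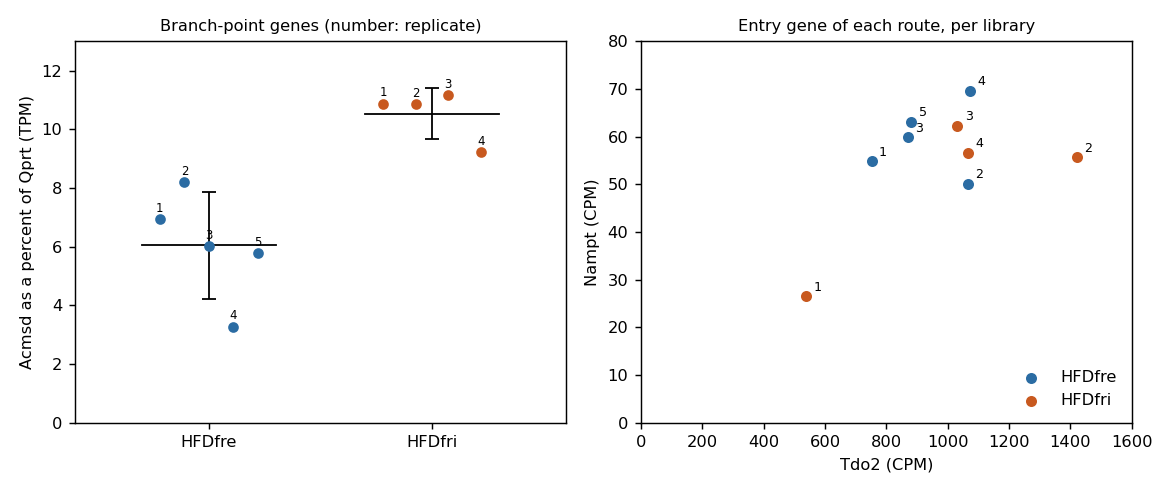
Left, Acmsd as a percent of Qprt in TPM for each library (number: replicate) with mean ± SD, 3.28% to 8.22% in HFDfre and 9.23% to 11.2% in HFDfri. Right, Tdo2 against Nampt in CPM, one point for each library, where HFDfri 1 is the lowest on both axes at 540 and 26.6 CPM.

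Tdo2 (ENSMUSG00000028011, chromosome 3, 81957090 to 81976202) encodes tryptophan dioxygenase, which opens the ring of tryptophan and controls the entry into the de novo route in liver. It was at 752, 1067, 871, 1073 and 882 CPM in HFDfre 1 to 5 and at 540, 1422, 1032 and 1068 CPM in HFDfri 1 to 4. HFDfri held both the lowest and the highest library, and the groups overlapped throughout. The log2 fold change was 0.13 ± 0.22 (SE, edgeR adjusted p = 0.785), with a 95% interval from -0.36 to 0.61. Single libraries set its sign, since it was 0.33 without HFDfri 1 and -0.08 without HFDfri 2. The spread within HFDfri, with a coefficient of variation of 35.7%, was the widest of the 10 genes in that group.

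Kmo (ENSMUSG00000039783, chromosome 1, 175620381 to 175662116) encodes kynurenine monooxygenase of the outer mitochondrial membrane. It ranged from 241 to 304 CPM in HFDfre and from 267 to 354 CPM in HFDfri, with the highest value in HFDfri 1. Its log2 fold change was 0.17 ± 0.11 (SE, edgeR adjusted p = 0.392) and was 0.080 without that library. Kynu (ENSMUSG00000026866, chromosome 2, 43555329 to 43682715) encodes kynureninase, which cleaves hydroxykynurenine to hydroxyanthranilate. It ranged from 117 to 138 CPM and from 125.9 to 155 CPM, with a log2 fold change of 0.15 ± 0.09 (SE, edgeR adjusted p = 0.383). Haao (ENSMUSG00000000673, chromosome 17, 83831156 to 83847963) encodes the dioxygenase that opens the ring of hydroxyanthranilate and gives the intermediate for which ACMSD and quinolinate formation compete. It ranged from 417 to 551 CPM and from 409 to 453 CPM, with a log2 fold change of -0.09 ± 0.10 (SE, edgeR adjusted p = 0.649). The 95% intervals of Kmo, Kynu and Haao ran from -0.06 to 0.41, from -0.05 to 0.34 and from -0.31 to 0.13. All 3 intervals include 0, and none reaches 0.5 on the log2 scale in either direction.

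Naprt and Nadsyn1 serve the Preiss-Handler route. Naprt (ENSMUSG00000022574, chromosome 15, 75890956 to 75894481) encodes nicotinate phosphoribosyltransferase, which starts the route. It ranged from 103 to 116 CPM in HFDfre and from 92.0 to 111 CPM in HFDfri, with a log2 fold change of -0.15 ± 0.09 (SE, edgeR adjusted p = 0.349). It shares exon sequence with Eef1d on the same strand, so its counts depend on how shared reads were assigned, which is not stated. Nadsyn1 (ENSMUSG00000031090, chromosome 7, 143795584 to 143822849) encodes NAD synthetase, which amidates the last intermediate of both the de novo and the Preiss-Handler routes. It was at 18.2, 16.4, 19.4, 18.7 and 18.1 CPM in HFDfre 1 to 5 and at 15.4, 15.5, 16.2 and 14.8 CPM in HFDfri 1 to 4. Every HFDfri library lay below every HFDfre library in TMM-scaled CPM, by a narrow margin between HFDfre 2 and HFDfri 3. Without TMM the groups overlapped, since HFDfre 1 had 943 of 60323908 counts, a smaller share than the 1190 of 69353439 in HFDfri 3. Per length, Nadsyn1 was at 9.32 ± 1.24 TPM in HFDfre and 8.81 ± 1.31 TPM in HFDfri (SD). The means were 18.1 ± 1.12 CPM (SD, n = 5) and 15.5 ± 0.552 CPM (SD, n = 4). On the log2 scale HFDfri was different by -0.23 ± 0.09 (SE), with a 95% interval from -0.42 to -0.04. It did not pass the adjusted threshold (edgeR adjusted p = 0.164, unadjusted 0.0206, DESeq2 adjusted p = 0.117), nor in any of the 19 alternatives, in which it was from -0.27 to -0.17.

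Nampt (ENSMUSG00000020572, chromosome 12, 32819545 to 32853349) encodes nicotinamide phosphoribosyltransferase, the rate-limiting step of salvage. It was at 54.9, 50.1, 59.9, 69.6 and 63.1 CPM in HFDfre 1 to 5 and at 26.6, 55.7, 62.3 and 56.6 CPM in HFDfri 1 to 4. The other 3 HFDfri libraries lay within the HFDfre range, and HFDfri 1 lay below all libraries. The log2 fold change of -0.24 ± 0.20 (SE, edgeR adjusted p = 0.529, 95% interval from -0.69 to 0.20) was -0.04 without HFDfri 1. Nmnat1 (ENSMUSG00000028992, chromosome 4, 149467572 to 149485202) encodes the nuclear adenylyltransferase that serves every route. It ranged from 13.4 to 16.8 CPM and from 10.7 to 16.3 CPM, with a log2 fold change of -0.16 ± 0.13 (SE, edgeR adjusted p = 0.504, 95% interval from -0.44 to 0.12). HFDfri 1 was the lowest of its group for Tdo2, Nampt and Qprt and the highest for Kmo, Naprt and Nmnat1. Without it 5 of the 10 genes had an unadjusted p under 0.05 by edgeR, beside 3715 of the 14463 genes tested in that fit. Of the 10, 1, Acmsd, passed the adjusted threshold (log2 fold change 0.87, edgeR adjusted p = 0.0296). The calls over all genes went from 150 of 14220 to 1106 of 14463.

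**Figure D4:**
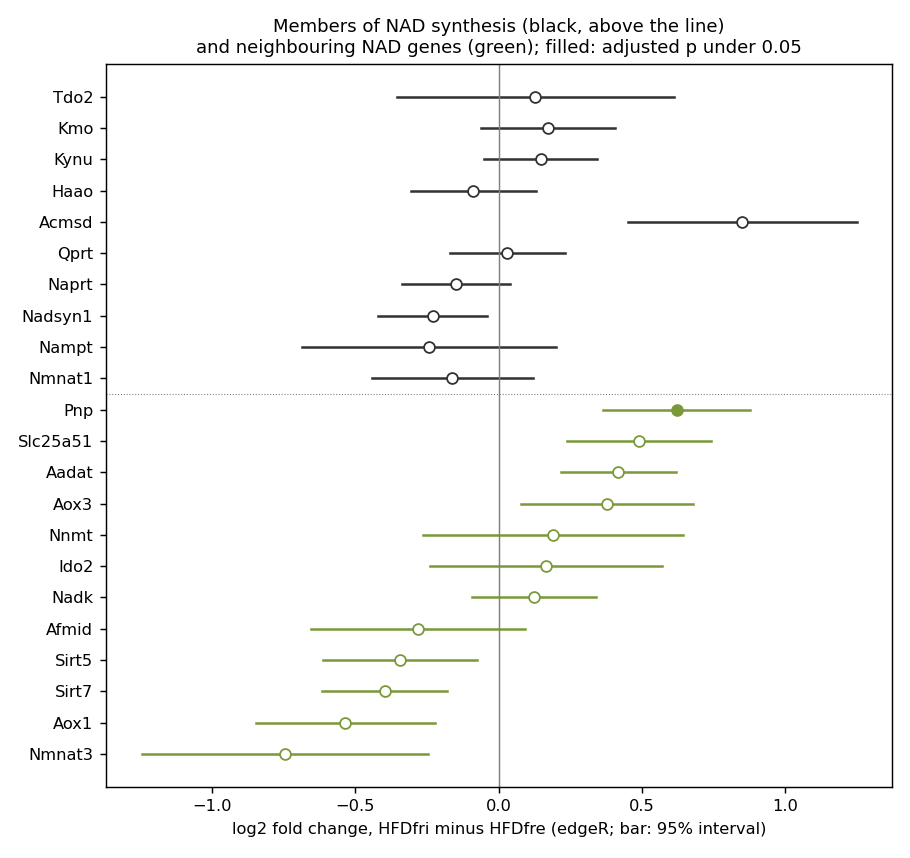
Log2 fold change, HFDfri minus HFDfre, with its 95% interval from edgeR, for the 10 genes (black) and for 12 neighbouring genes of NAD metabolism (green). Filled points have an adjusted p under 0.05, which holds for Pnp alone, and the interval of Acmsd, 0.45 to 1.25, lies farthest from 0 among the 10.

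A wider list of 37 genes of NAD metabolism was set beside the 10. Of these, 33 were tested, and 1 passed the adjusted threshold by edgeR, against 1.05% of all tested genes. DESeq2 called 6 (Pnp, Aadat, Slc25a51, Aox1, Sirt7 and Nmnat3), against 7.26% of all tested genes. By unadjusted p under 0.05 there were 10, of which 4 were higher and 6 lower in HFDfri. This is 30.3% of the 33, beside 21.2% of all tested genes. Their median log2 fold change was -0.059. The 4 that were not tested, Ido1, Nmnat2, Nmrk2 and Slc22a13, had few or no counts, and Ido1, the dioxygenase that enters the kynurenine route outside the liver, was at 0 CPM in every library.

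The gene that passed by edgeR was Pnp (ENSMUSG00000021871), purine nucleoside phosphorylase, which also splits nicotinamide riboside to nicotinamide. It was at 36.0, 40.5, 32.2, 33.3 and 34.1 CPM in HFDfre 1 to 5 and at 64.6, 42.6, 55.9 and 53.6 CPM in HFDfri 1 to 4. All HFDfri libraries were above all HFDfre libraries, with HFDfri 2 close to HFDfre 2. The log2 fold change was 0.62 ± 0.12 (SE, edgeR adjusted p = 0.0360), and 8 of the 19 alternatives kept it past the threshold, with a direction that was the same in all 19. Pnp has a close paralog, Pnp2, at an overlapping position, so that the split of reads between them is uncertain.

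Around kynurenine, Aadat, an aminotransferase that turns it into kynurenic acid, was at 73.1 ± 5.17 CPM in HFDfre and 97.6 ± 9.40 CPM in HFDfri without overlap, a log2 fold change of 0.42 ± 0.09 (SE, edgeR adjusted p = 0.0528, DESeq2 adjusted p = 0.00309). For Ido2 the log2 fold change was 0.16 (edgeR adjusted p = 0.648). Its level ranged from 55.9 to 63.4 CPM in HFDfre and from 38.0 to 89.9 CPM in HFDfri, and like Tdo2 it was lowest in HFDfri 1 and highest in HFDfri 2. Afmid, the formamidase between TDO2 and KMO, had a log2 fold change of -0.28 ± 0.17 (SE, edgeR adjusted p = 0.378), with 77.3 to 130.2 CPM in HFDfre and 68.6 to 114.6 CPM in HFDfri.

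Among the genes that remove nicotinamide, Nnmt, its methyltransferase, was at 142 ± 11.6 and 162 ± 61.7 CPM (log2 fold change 0.19, edgeR adjusted p = 0.641). The aldehyde oxidases, which oxidise the methylated product, differed in direction. Aox1 was at -0.54 ± 0.14 on the log2 scale (SE, edgeR adjusted p = 0.0840, DESeq2 adjusted p = 0.0129). Aox3 was at 0.38 ± 0.14 (SE, edgeR adjusted p = 0.157, DESeq2 adjusted p = 0.0720). They are close paralogs. Nmnat3, the mitochondrial adenylyltransferase, was at 6.08 ± 1.16 CPM in HFDfre and 3.62 ± 1.22 CPM in HFDfri, a log2 fold change of -0.75 ± 0.23 (SE, edgeR adjusted p = 0.112, DESeq2 adjusted p = 0.0286). Slc25a51, the carrier of NAD into mitochondria, was at 57.9 ± 7.73 and 81.3 ± 9.36 CPM, a log2 fold change of 0.49 ± 0.12 (SE, edgeR adjusted p = 0.0623, DESeq2 adjusted p = 0.00747). Nadk, the kinase that makes NADP, differed by 0.12 on the log2 scale (edgeR adjusted p = 0.507).

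Of the 12 NAD users in the wider list, 10 had a negative log2 fold change with TMM. The 2 positive ones were Parp1 (0.19) and Bst1 (0.27). Of the 12, 3 (25.0%) had an unadjusted p under 0.05 by edgeR, beside 21.2% of all tested genes, and all 3 were sirtuins. The 7 sirtuin genes among them were not a class of their own in the list. All 7 had a negative log2 fold change with TMM, and 6 with library totals, where Sirt1 was at 0.022. Their median was -0.16 with TMM. Over all tested genes, 7234 of 14220 were negative. Of the 7, 0 passed the adjusted threshold by edgeR, and 3 (42.9%) had an unadjusted p under 0.05, beside 21.2% of all tested genes. The nucleolar Sirt7 was lower without overlap, at 43.0 ± 3.38 and 32.6 ± 3.87 CPM, a log2 fold change of -0.40 ± 0.10 (SE, edgeR adjusted p = 0.0735, DESeq2 adjusted p = 0.0145). The mitochondrial Sirt5 had a log2 fold change of -0.35 ± 0.12 (SE, edgeR adjusted p = 0.148).

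Genes of like profile were looked up as a description, by Pearson's r of log2 CPM over the 9 libraries among all tested genes. The 3 nearest to Acmsd were Ash1l (r = 0.980), Tspyl4 (r = 0.974) and Slco1a1 (r = 0.955), which differed by 0.34, 0.64 and 0.74 on the log2 scale (edgeR adjusted p = 0.0916, 0.193 and 0.0533). Part of this likeness is the difference between the groups, and within the groups, as deviations from their means, r was 0.932, 0.934 and 0.851. The 3 nearest to Tdo2 were Mpzl2 (r = 0.983), Fbxo3 (r = 0.979) and Mnat1 (r = 0.976), with log2 fold changes of 0.050, 0.049 and 0.19. With 9 libraries and 14220 genes searched, values this high say only which profiles lie closest.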

How the data were processed

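RNA-seq of liver from 5 HFDfre and 4 HFDfri samples was analysed. Per the labels and the study's methods, the authors aligned paired-end reads to mm10 with HISAT2 and quantified them with StringTie, with versions, annotation and use of strand not given in the sources used here. The library kit is named differently by the labels and the methods. The deposited values are estimated counts per gene, whole numbers without scaling across samples. Among low values, multiples of 4 were too frequent (4 in 3990 gene and library pairs, 3 in 2172 and 5 in 1840), so counting error is only approximate, and an alternative divided the counts by 4. Identifiers were matched to GENCODE M21 (GRCm38; 96.3% found), which gave positions and exon lengths. The authors' annotation may be another one.

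Columns were matched to samples by the code in each title. Counts were rounded, filtered with filterByExpr (14220 of 33211 genes kept) and compared as HFDfri minus HFDfre with edgeR (4.0.16, R 4.3.3), using its quasi-likelihood test, TMM factors and no covariate. The Benjamini-Hochberg adjustment covered every tested gene, at a threshold of 0.05. SE is the log2 fold change divided by the square root of F. CPM are TMM-scaled, and log2 CPM used a prior count of 2. For shares of counts, exact permutation tests (two-sided) enumerated the 126 ways to divide 9 libraries into 5 and 4. The alternatives were DESeq2 1.42.0, limma-voom (3.58.1), DESeq2 size factors, library totals, dropping the filter, at least 10 counts required in all libraries, counts divided by 4, shares of the ribosomal RNA-like locus or of mitochondrial transcripts as a covariate, the replicate number as a block, and leaving out each library.

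The genes and lists were chosen with earlier results of these data known. Named were the 10 genes, those of the wider list past the adjusted threshold and the next by p up to 8, Nnmt, Afmid, Nadk and Ido2, and the 3 nearest profiles to the member with the smallest p and the member with the highest TPM. The marker genes Des and Sox9 were picked out once their values had been seen, as were Cela1 and Cidec. The replicate numbers follow the order of the titles, and the labels name no pairs. Deviations from the group means of same-numbered libraries correlated between -0.136 and 0.0813. The codes in the titles end in numbers that partly recur in both groups, and pairing by these was not tested. Promoter windows are from RefSeq (GRCm38.p6). The window of Acmsd is not reported here.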

Additional observations from a re-analysis of the deposited data

Results flagged for a closer look

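A search of 26 measures in both groups (52 sets) for single libraries that stood apart found 4, all in HFDfri, where 2.60 would be expected, since chance gives about 1 in 20 sets. HFDfri 1 stood apart for Nampt, with a log2 CPM of 4.73 while its group otherwise spanned 5.80 to 5.96. The gap was 0.869 of the group's range. HFDfri 4 stood apart for Acmsd as a percent of Qprt (TPM), with 9.23 beside 10.9 to 11.2, a gap of 0.841 of the range. That lowest percent still lay above every HFDfre library. HFDfri 2 stood apart for Sirt5 (log2 CPM 3.23 beside 3.09 to 3.10, gap 0.916) and for Slc25a51 (log2 CPM 6.07 beside 6.41 to 6.45, gap 0.902). The causes were not tested.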

How the results depend on the processing

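The 0 of 10 members past the adjusted threshold by edgeR became 1, Acmsd, with DESeq2, limma-voom, library totals, a minimum of 10 counts and counts divided by 4, and ranged from 0 to 1 when each library was left out (1 without HFDfre 2 or HFDfri 1). The count of members with an unadjusted p under 0.05 was 2, but 1 with library totals, with the replicate block or without HFDfri 4, and 5 without HFDfri 1. Over all tested genes that count was 3009 of 14220. It was 2456 of 14220 with library totals and 2536 of 14220 with the replicate block. It was 2772 of 14460 without HFDfri 4 and 3715 of 14463 without HFDfri 1. Of the other 9 members, 7 kept their direction in all 19 alternatives and 0 passed in any. Tdo2 turned to -0.28 and Qprt to -0.12 with the mitochondrial share as a covariate. Left-out libraries gave log2 fold changes from -0.078 (without HFDfri 2) to 0.33 for Tdo2, from -0.020 (without HFDfri 2) to 0.074 for Qprt, from -0.015 (without HFDfri 2) to 0.35 for Ido2, and from -0.035 (without HFDfri 1) to 0.37 for Nnmt. Ido2 was -0.13 and Nadk -0.036 with the mitochondrial covariate. For the wider NAD list, 1 gene became 6 with DESeq2, 2 with a minimum of 10 counts and with counts divided by 4, 0 when unfiltered or with either share as a covariate, and 0 to 4 with each library left out. Over all genes, 150 became 1033 with DESeq2, 76 with library totals (72.4% of them higher in HFDfri, against 47.3% of the 150), 72 when unfiltered, 38 after adding the ribosomal locus share and 5 after adding the mitochondrial share, and 6 (without HFDfre 3 or HFDfre 5) to 1106 (without HFDfri 1) with each library left out. Library totals moved the median log2 fold change of all genes by less than 0.1, to 0.05. Of the 10 places in the order of levels, 3 changed when CPM, without length, replaced TPM, and 0 with the longest transcript as the length. The mitochondrial share averaged 15.4% in HFDfre and 10.7% in HFDfri, so fits with it as a covariate separate it from the diet only in part. The filters change the genes tested. The cause was not tested for the rest.

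With the replicate block, 0 genes passed over all genes, with 2536 at an unadjusted p under 0.05, and 0 of the members and 0 of the wider list passed. Acmsd had a log2 fold change of 0.89 with the block (edgeR adjusted p = 0.144) and Pnp 0.60 (edgeR adjusted p = 0.156). The labels do not name same-numbered samples as pairs, and their correlations, given in the processing, were low. Whether samples pair by the codes in the titles was not tested.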
